A study of Mus musculus with 4 samples.

Results

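The guanylate-binding proteins (GBPs) and the immunity-related GTPases (IRGs) are large GTPases that cells make after exposure to interferons, interferon-gamma above all. Here 10 of them were followed in CD4 T cells: Gbp2, Gbp3, Gbp4, Gbp5, Gbp6 and Gbp7 of the GBP family, and Igtp, Irgm1, Irgm2 and Iigp1 of the IRG family. They were taken by gene symbol, and all 10 stood on 1 row each among 23234 different symbols. The samples are helper T cells of the spleen, by their labels, and the mice were C57BL/6 at 43 weeks of age. The titles of all 4 samples also carry the word Ctrl, which the labels do not explain. Of 4 libraries, 2 (KO 1 and KO 2) come from mice labelled RIPK1-KO, with the deletion placed in T cells by the series design, and 2 (WT 1 and WT 2) from mice labelled wild type. What drives the deletion, which exons it removes and how many mice each library holds could not be read from the labels. The p-values thus speak only of the spread between libraries, and that spread may be technical. RIPK1 is a kinase and scaffold downstream of the TNF receptor.

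In the interferon-gamma pathway the cytokine binds a receptor made of IFNGR1 and IFNGR2, and the kinases JAK1 and JAK2 pass the signal on to the nucleus, where target genes are switched on, among them the transcription factor IRF1. Type I interferons act through another receptor. GBPs and IRGs are targets of both routes to different degrees. GBPs coat vacuoles and free bacteria in the cytosol and promote inflammasome activation. IRGs attack the vacuoles of parasites such as Toxoplasma: Iigp1 is an effector of this kind, while Irgm1, Irgm2 and Igtp are regulators that keep the effectors off the cell's own membranes. In T cells Irgm1 is known for protecting activated cells from death under interferon-gamma.

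A RefSeq promoter entry (250 bases before and 50 after a transcription start, build GRCm38.p6) was matched for 7 of the 10 members. Each of these 7 held at least 1 pair of GAAA steps 2 bases apart, the core shared by interferon-stimulated response elements and IRF sites, on 1 strand or the other. Over all genes with such entries the share with a match was 3.99%. A match is a run of letters and not a measured site. Gbp3 has another entry without a match, so that 7 of the 8 entries of these genes held a match. The stretches around this element are shown because all 7 genes hold the same short element before an annotated start site. They run 5′ to 3′ on the gene's strand, and capitals mark the pair with the bases between, read as GAAA or, from the other strand, as TTTC, overlapping matches included.
Gbp2: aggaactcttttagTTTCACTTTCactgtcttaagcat
Gbp3: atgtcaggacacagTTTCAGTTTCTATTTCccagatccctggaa
Gbp5: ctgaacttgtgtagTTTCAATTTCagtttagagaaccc
Gbp7: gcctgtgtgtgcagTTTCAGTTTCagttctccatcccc
Igtp: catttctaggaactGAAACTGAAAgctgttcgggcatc
Irgm1: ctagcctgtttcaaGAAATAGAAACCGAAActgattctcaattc
Irgm2: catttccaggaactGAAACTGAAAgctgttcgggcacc

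These stretches lie at chr3:142620590-142620627 (Gbp2), chr3:142559985-142560028 (Gbp3), chr3:142496755-142496792 (Gbp5) and chr3:142530269-142530306 (Gbp7), all on the plus strand. For the IRG genes they lie at chr11:58199508-58199545 on the plus strand (Igtp), chr11:48871421-48871464 on the minus strand (Irgm1) and chr11:58214899-58214936 on the plus strand (Irgm2). The element began 30 bases before the start site in Irgm1, 34 in Igtp, 45 in Gbp3, 53 in Gbp7, 59 in Gbp2 and 64 in Irgm2. In Gbp5 it began 165 bases before it. The stretches of Igtp and Irgm2, neighbours on chromosome 11, were identical at 36 of 38 bases.

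Values are FPKM, that is, fragments per kilobase of transcript relative to all mapped fragments of a library, so levels of different genes are already per length. The steps of low values put the depth at about 17400000 and 18800000 fragments in KO 1 and KO 2, and 21300000 and 22000000 in WT 1 and WT 2. The KO depths are less certain than the WT depths, since another depth scored nearly as high on whole fragments (0.637 beside 0.648 in KO 1, 0.571 beside 0.598 in KO 2). At that depth the members rested on about 169 to 2900 fragments each, and the smallest of them, Gbp5 in WT 2, had a counting error of about 7.69% (1 SD). Ripk1 itself went against the label, at 10.4 and 9.54 FPKM in KO 1 and KO 2, against 5.61 and 5.60 FPKM in WT 1 and WT 2. Since whole-gene FPKM says little about the loss of single exons, KO here means the libraries labelled so. Cd4 was at 211 and 185 FPKM in KO libraries and 86.3 and 87.3 FPKM in WT libraries. Other helper T cell markers did not all follow it. Cd3d was at 175 and 169 FPKM in KO libraries and 185 and 238 FPKM in WT libraries. Of 12 such markers, both KO libraries lay above both WT libraries for 7 and below them for 1, beside 58.5% and 12.1% of all rows tested. Of the CD8 chains Cd8a stayed at or under 0.764 FPKM in all 4 libraries. Cd8b1 was at 10.3 and 11.3 FPKM in KO libraries and 10.9 and 10.5 FPKM in WT libraries. The median gene was 0.38 higher in KO libraries on the log2 scale as deposited and 0.01 higher after trimmed-mean scaling, which sets the bulk of genes level. Changes are therefore also given relative to the median row.

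KO 1 held the highest value of the 4 libraries for each of the 10 members. KO 2 lay close to the WT libraries for most of them. The summed level of the members was 252 and 130 FPKM in KO 1 and KO 2, against 113 and 124 FPKM in WT 1 and WT 2. Only Gbp5 passed the test as deposited (limma on log2(FPKM + 1), Benjamini-Hochberg adjusted over all 11074 rows tested, threshold 0.05). This is 1 of 10 members called higher, beside 25.6% of all rows tested. No member was called lower, beside 1.0% of all rows (limma). At an unadjusted p under 0.05, 0 members were lower and 5 higher, beside 39.5% of all rows higher (limma). All 10 members had passed the filter of at least 1 FPKM in 2 libraries, and all were above 1 FPKM in all 4. Both KO libraries lay above both WT libraries for 7 members, beside 58.5% of all rows tested. With 2 libraries a group, an exact two-sided permutation test cannot give a p under 0.333. The median log2 change of the members was 0.73, or 0.35 above that of all rows tested.

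**Figure D1:**
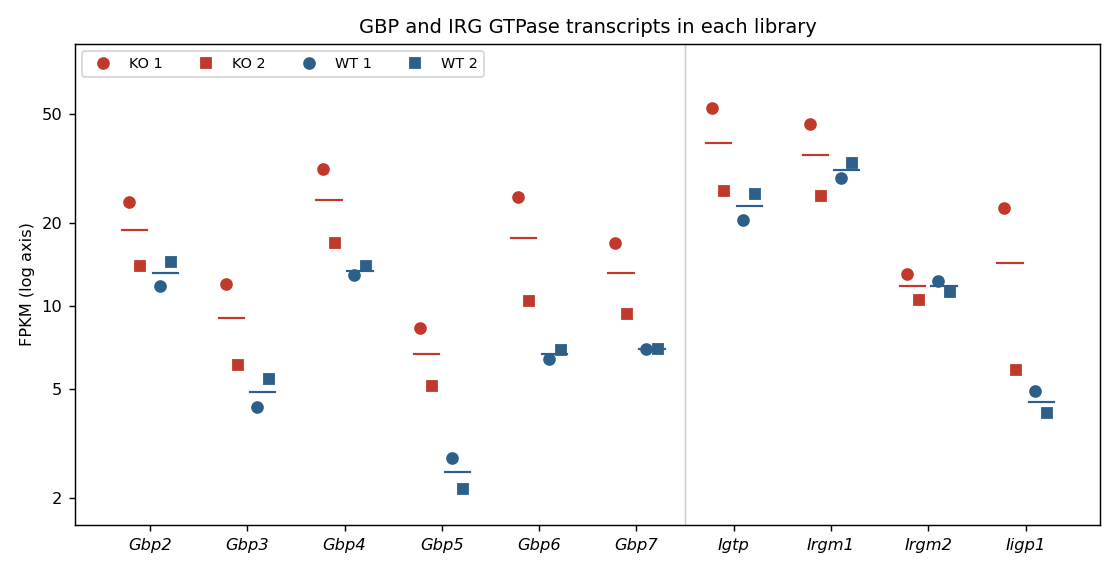
FPKM (log axis) of the 10 GTPase transcripts in each library; points are libraries, circles replicate 1 and squares replicate 2, with KO in red to the left of WT in blue, and short lines are group means. KO 1 is the highest point of every gene, and KO 2 lies inside or below the WT values for Gbp2, Irgm1 and Irgm2.

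Among the GBPs, Gbp5, which has been linked to assembly of the NLRP3 inflammasome, was the least abundant. It was at 8.30 and 5.12 FPKM in KO 1 and KO 2, against 2.81 and 2.16 FPKM in WT 1 and WT 2. Both KO values were above both WT values, and it was the member for which KO 2 stood furthest above the WT mean, at 2.06-fold. Its log2 change was 1.12 ± 0.24 (SE, limma adjusted p = 0.0224), which lay 0.74 above the median row. Its mean level was 2.70-fold that of the WT libraries. The call ended with trimmed-mean scaling (log2 change 0.76, limma adjusted p = 0.0922), with quantile normalization (0.64, limma adjusted p = 0.14), and without WT 1 or WT 2 (limma adjusted p = 0.105 and 0.0912). Without WT 1, 0 of 10 members were called, beside 0.0813% of all rows, and without WT 2, 0 of 10, beside 14.5% (limma; 1 member higher at an unadjusted p under 0.05 in each).

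Gbp6 was at 24.9 and 10.4 FPKM in KO 1 and KO 2, against 6.42 and 6.95 FPKM in WT 1 and WT 2. The groups did not overlap, but KO 1 was 2.39 times KO 2, and the log2 change of 1.16 ± 0.37 did not pass (SE, limma adjusted p = 0.0562). Its transcript is hard to tell from those of other genes: 59.7% of its 50-base stretches also occur in other transcripts of GENCODE M21, so that its value is uncertain. Gbp4, also on chromosome 5, was at 31.6 and 17.0 FPKM in KO 1 and KO 2, against 13.004 and 13.95 FPKM in WT 1 and WT 2. It did not overlap between groups and did not pass (log2 change 0.74 ± 0.30, SE, limma adjusted p = 0.103).

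The GBP genes of chromosome 3 besides Gbp5 were also highest in KO 1. Gbp7, a GBP linked to the delivery of the oxidative burst and autophagy machinery to bacteria, was at 17.0 and 9.39 FPKM in KO 1 and KO 2, against 7.02 and 6.99 FPKM in WT 1 and WT 2. The WT libraries were within 0.0155 FPKM (SD) of their mean, the closest of any member, and the change of 0.77 ± 0.27 on the log2 scale did not pass (SE, limma adjusted p = 0.0782). Gbp3 was at 11.998 and 6.09 FPKM in KO 1 and KO 2, against 4.28 and 5.42 FPKM in WT 1 and WT 2 (limma adjusted p = 0.116). Gbp2, which binds bacteria and Toxoplasma vacuoles, was at 24.0 and 13.96 FPKM in KO 1 and KO 2, against 11.9 and 14.5 FPKM in WT 1 and WT 2. It was the GBP member whose groups overlapped, since KO 2 lay below WT 2, and its log2 change of 0.45 was close to that of the median row (0.07 above it; limma adjusted p = 0.251). Over the 6 GBP members the median log2 change was 0.76, and over the 4 IRG members 0.39, which lay 0.38 and 0.02 above that of all rows tested. The difference between the families was not tested.

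None of the 4 IRG members passed the test (limma; 0 of 4 also at an unadjusted p under 0.05). Iigp1, the effector, was at 22.8 FPKM in KO 1 and 5.86 FPKM in KO 2, against 4.91 and 4.09 FPKM in WT 1 and WT 2. It had the largest gap between the KO libraries of any member, 3.88-fold, with KO 2 at 1.30 times and KO 1 at 5.06 times the WT mean. Its log2 change of 1.22 ± 0.52 was the largest of the 10 and did not pass (SE, limma adjusted p = 0.121). Igtp, a regulator also called Irgm3, was at 52.4 and 26.2 FPKM in KO 1 and KO 2, against 20.6 and 25.6 FPKM in WT 1 and WT 2. KO 2 was only just above WT 2, and the change of 0.67 ± 0.34 on the log2 scale did not pass (SE, limma adjusted p = 0.172).

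In both other regulators the groups overlapped. Irgm1 was at 45.9 FPKM in KO 1 and 25.1 FPKM in KO 2, against 29.4 and 33.2 FPKM in WT 1 and WT 2. KO 1 was the highest and KO 2 the lowest of the 4 libraries, and the log2 change was 0.12, with a 95% interval of -0.60 to 0.84 (limma adjusted p = 0.781). Irgm2 was at 13.1 and 10.57 FPKM in KO 1 and KO 2, against 12.3 and 11.3 FPKM in WT 1 and WT 2. Here too KO 1 was the highest and KO 2 the lowest library, but over a narrow range, with a log2 change of 0.00031, a 95% interval of -0.46 to 0.46, and limma adjusted p = 0.999. Relative to the median row Irgm1 stood at -0.26 and Irgm2 at -0.38, and after trimmed-mean scaling their log2 changes were -0.32 and -0.42, neither of which passed (limma adjusted p = 0.426 and 0.164). Igtp and Irgm2 had log2 changes of 0.67 (95% interval -0.13 to 1.47) and 0.00031. Of the 50-base stretches of the Igtp transcript, 12.3% also occur in Irgm2 transcripts of GENCODE M21. The difference between these genes was not tested.

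**Figure D2:**
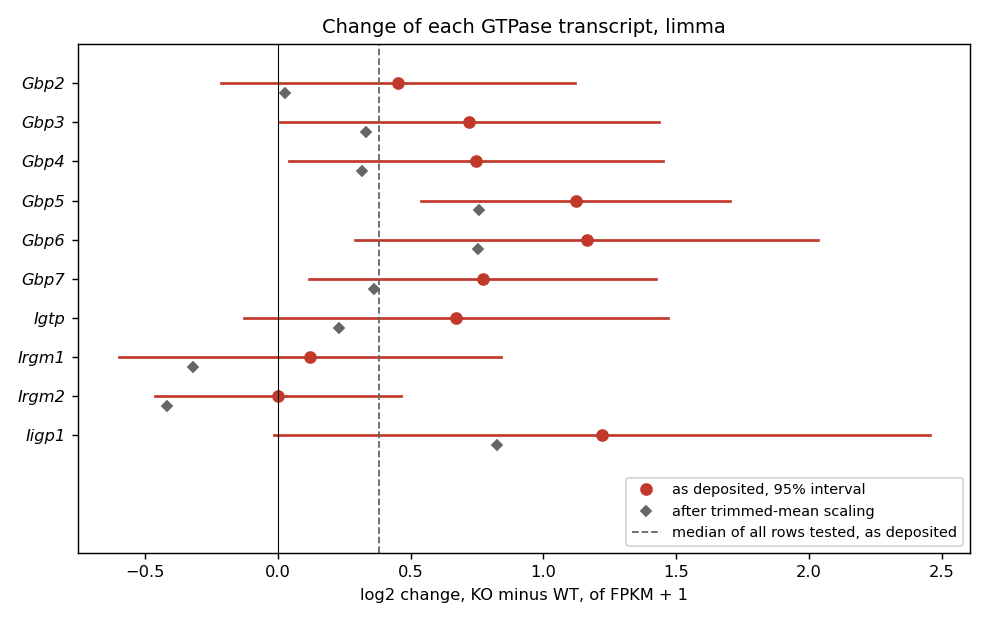
Log2 change of each member, KO minus WT, on log2(FPKM + 1); red points with lines are limma estimates with 95% intervals as deposited, grey diamonds the estimates after trimmed-mean scaling, and the dashed line the median of all rows tested (0.38). Gbp5, Gbp6 and Iigp1 lie furthest to the right, Irgm1 and Irgm2 lie left of the dashed line, and the diamonds of Irgm1 and Irgm2 are below 0.

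The order of levels differed little between the groups at the top. In KO libraries Igtp averaged 39.3 ± 18.5 FPKM and Irgm1 35.5 ± 14.7 FPKM, and in WT libraries 23.1 ± 3.49 and 31.3 ± 2.69 FPKM (SD, n = 2 and 2). Igtp was the highest member in KO 1 and KO 2, and Irgm1 in WT 1 and WT 2. Gbp4, Gbp2 and Irgm2 followed in the WT libraries at 13.5 ± 0.671, 13.2 ± 1.87 and 11.8 ± 0.767 FPKM (SD, n = 2), with ranges that overlapped from one to the next. Below them came Gbp7 and Gbp6, at 7.004 ± 0.0155 and 6.68 ± 0.379 FPKM, which differed by less than the SD of Gbp6. Gbp3 and Iigp1, at 4.85 ± 0.808 and 4.498 ± 0.581 FPKM, overlapped, and Gbp5 came last at 2.48 ± 0.455 FPKM (SD, n = 2 each). In KO libraries the SD was between 1.82 FPKM (Irgm2) and 18.5 FPKM (Igtp), so that most neighbours in the order could not be told apart. Iigp1 at 14.3 ± 11.95 FPKM (SD, n = 2) stood sixth of the 10 in KO libraries and ninth in WT libraries.

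The split between the KO libraries was larger for these genes than for most others. KO 1 was above KO 2 for 10 of 10 members, beside 57.9% of all rows tested, and over 1.5 times KO 2 for 9 of 10, beside 8.26% of all rows. The exception was Irgm2, at 1.24 times. The median ratio of KO 1 to KO 2 was 1.84 over the members and 1.04 over all rows tested. The ratio of WT 1 to WT 2 ran from 0.789 (Gbp3) to 1.30 (Gbp5). Against the WT mean, the median member was at 2.38-fold in KO 1 and 1.26-fold in KO 2, while the median of all rows tested was 1.40-fold and 1.34-fold. These ratios compare single libraries and carry no test. Without KO 2, 7 of 10 members were called higher, beside 19.6% of all rows (limma). Without KO 1, 1 of 10 was, Gbp5 (limma adjusted p = 0.0332), beside 16.5%.

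**Figure D3:**
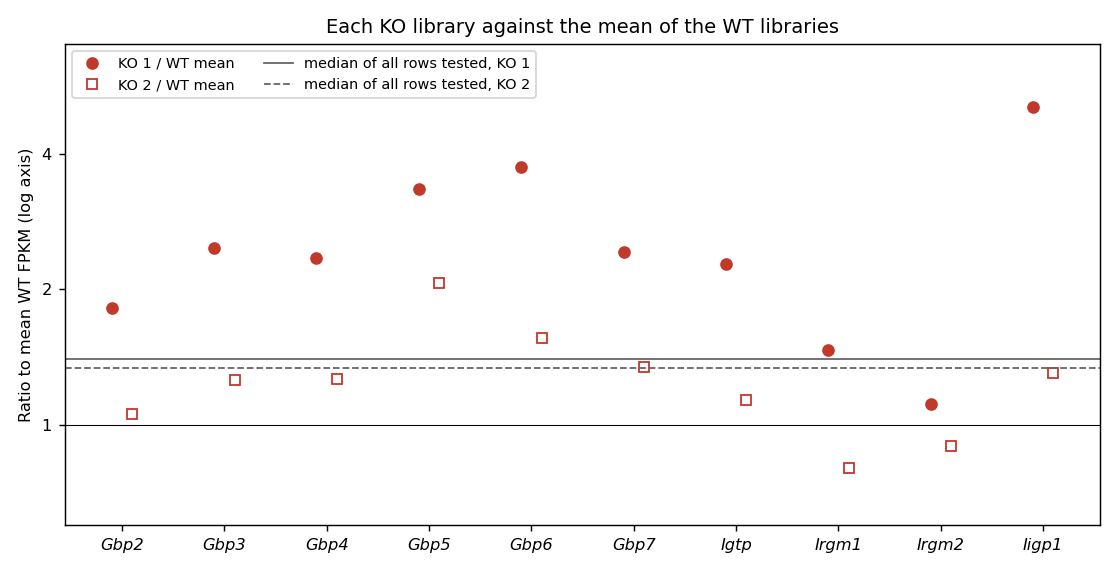
Ratio of KO 1 (filled circles) and of KO 2 (open squares) to the mean of the WT libraries for each member, on a log axis; the grey lines are the medians of the same ratios over all rows tested (1.40 solid, 1.34 dashed). Circles lie above the solid line for all members except Irgm2, and squares lie clearly above the dashed line for Gbp5 (2.06) and Gbp6 (1.56).

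Other members of both families, taken from a list of mouse GBP and IRG symbols, showed the same order of the KO libraries in most cases. Of 5 other GBP genes 4 were tested and 1 rose (25%, beside 25.6% of all rows). It was Gbp9, at 28.7 and 18.5 FPKM in KO 1 and KO 2, against 10.2 and 9.73 FPKM in WT 1 and WT 2 (limma adjusted p = 0.0218, and 0.0845 after trimmed-mean scaling). Gbp8, Gbp10 and Gbp11 did not pass (limma adjusted p = 0.0726, 0.0532 and 0.148). In all 4 both KO libraries lay above both WT libraries, as in 58.5% of all rows. Gbp1, called Gbp2b in RefSeq, stayed under 0.5 FPKM in all 4 libraries and was not tested. Of 11 tested rows of other IRG genes 3 rose and 0 fell (limma; 27.3%, beside 25.6% of all rows). With trimmed-mean scaling 0 rose, beside 4.52% of all rows (limma; 0 higher and 2 lower at an unadjusted p under 0.05). The count also fell without KO 1, WT 1 or WT 2, as did that of all rows, in fits that leave 1 library in a group. The 3 called higher as deposited were 9930111J21Rik1, 1 row of 9930111J21Rik2 and Gm5431 (limma adjusted p = 0.0336, 0.0319 and 0.0449). Gm12250, the gene of the effector Irgb10, was at 9.42 FPKM in KO 1 and 2.997 FPKM in KO 2, against 2.18 and 2.77 FPKM in WT 1 and WT 2 (limma adjusted p = 0.147). The most abundant IRG gene measured was Ifi47, at 71.2 and 37.0 FPKM in KO 1 and KO 2, against 48.8 and 55.9 FPKM in WT 1 and WT 2. As for Irgm1, KO 1 was its highest library and KO 2 its lowest (limma adjusted p = 0.962).

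Tgtp1 and Tgtp2 are near-identical effector genes on 3 rows, and KO 2 divided its fragments among those rows unlike the other libraries. Their rows together came to 57.5 and 21.1 FPKM in KO 1 and KO 2, against 31.1 and 29.1 FPKM in WT 1 and WT 2. Gm4841, Gm4951, F830016B08Rik and Irgq did not pass (limma adjusted p = 0.162, 0.64, 0.263 and 0.107), and Irgc1 was at or under 0.249 FPKM in all 4 libraries. The very large inducible GTPases gave 5 tested rows, of which 0 were called as deposited, beside 25.6% of all rows (limma; 5 were higher at an unadjusted p under 0.05). Without KO 1 4 were called higher and without KO 2 all 5, beside 16.5% and 19.6% of all rows (limma). Gm8979 was at 22.1 and 13.3 FPKM in KO 1 and KO 2, against 8.97 and 10.8 FPKM in WT 1 and WT 2 (limma adjusted p = 0.0783). Both rows of Gm4070 and both of Gvin1 are listed at 0 in WT 2, while in WT 1 they were at 8.99 and 9.22 FPKM (Gm4070) and 2.09 and 2.13 FPKM (Gvin1).

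Upstream of the GTPases, the cytokine and 1 chain of its receptor rose as deposited. Ifng was at 29.98 and 38.7 FPKM in KO 1 and KO 2, against 9.41 and 20.3 FPKM in WT 1 and WT 2 (log2 change 1.24 ± 0.35, SE, limma adjusted p = 0.0422). Ifngr1, the ligand-binding chain, was at 51.2 and 50.3 FPKM in KO 1 and KO 2, against 17.5 and 31.8 FPKM in WT 1 and WT 2 (limma adjusted p = 0.0394). These calls, like the list counts above and below, depended on WT 1. So did nearly all calls over all rows, in a fit with 1 WT library. Of 101 tested rows of the other lists 29 were called higher as deposited, beside 25.6% of all rows (limma). Neither gene passed after trimmed-mean scaling (limma adjusted p = 0.124 and 0.115). Ifngr2, the signalling chain, was at 7.70 and 12.5 FPKM in KO 1 and KO 2, against 11.9 and 19.3 FPKM in WT 1 and WT 2, and did not pass (limma adjusted p = 0.186). Ifng was thus higher in KO 2 than in KO 1, the reverse of every member.

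The kinase gene Jak2 rose 2.86-fold, with 50.1 and 44.7 FPKM in KO 1 and KO 2, against 13.97 and 19.2 FPKM in WT 1 and WT 2. It passed as deposited (limma adjusted p = 0.0136), with trimmed-mean scaling (0.028) and with quantile normalization (0.0445). Jak1 did not pass (limma adjusted p = 0.0583). Irf1, a transcription factor induced by interferon-gamma, was at 73.8 and 135 FPKM in KO 1 and KO 2, against 58.5 and 127 FPKM in WT 1 and WT 2. Its values went with the replicate number and not with the genotype (limma adjusted p = 0.735), as did those of Socs1, the feedback inhibitor, at 14.5 and 25.4 FPKM in KO 1 and KO 2, against 10.2 and 24.6 FPKM in WT 1 and WT 2 (limma adjusted p = 0.665). Of the 15 genes of this list 5 rose and 0 fell (limma; 8 higher at an unadjusted p under 0.05), or 33.3%, beside 25.6% of all rows. After trimmed-mean scaling 1 rose and 1 fell, beside 4.52% of all rows higher.

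Of 24 tested genes of a further list, known to be induced by interferon-gamma, 11 rose and 0 fell as deposited (limma; 45.8%, beside 25.6% of all rows), 3 rose with trimmed-mean scaling and 1 with quantile normalization, beside 4.52% and 1.34%. Cd74, the invariant chain of MHC class II, was at 59.1 and 34.1 FPKM in KO 1 and KO 2, against 6.90 and 10.5 FPKM in WT 1 and WT 2 (limma adjusted p = 0.0129). Serpina3g, a protease inhibitor of activated T cells, was at 34.7 and 18.8 FPKM in KO 1 and KO 2, against 3.10 and 6.02 FPKM in WT 1 and WT 2 (limma adjusted p = 0.0136). Nlrc5, the transactivator of MHC class I genes, and Casp1 also rose (limma adjusted p = 0.0143 and 0.019). In KO 2 alone these 4 genes were at 2.26 (Nlrc5) to 4.12 (Serpina3g) times the WT mean. They were named for their small unadjusted p in the same limma fit, which favours genes that are high in KO 2. The median of the tested list was 1.43-fold the WT mean in KO 2, beside 1.34-fold over all rows tested.

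The list of type I interferon response genes shared the split between the KO libraries. Of 25 tested 6 rose and 0 fell (limma; 24.0%, beside 25.6% of all rows). After trimmed-mean scaling 0 rose, beside 4.52% of all rows (limma; 5 higher at an unadjusted p under 0.05). The count grew without KO 2 and fell without KO 1, WT 1 or WT 2, in fits that leave 1 library in a group. Over all rows the count fell in each of these fits. Against the WT mean, the median gene of the list was at 3.53-fold in KO 1 and 1.42-fold in KO 2. Over all rows tested these medians were 1.40-fold and 1.34-fold. KO 1 was above KO 2 for 25 of 25 and over 1.5 times KO 2 for 21 of 25, beside 8.26% of all rows. The summed level of the list was 500 and 243 FPKM in KO 1 and KO 2, against 195 and 233 FPKM in WT 1 and WT 2. Mx1 was at 10.7 and 2.21 FPKM in KO 1 and KO 2, against 0.364 and 0.597 FPKM in WT 1 and WT 2 (limma adjusted p = 0.0351). Oas1a and Ifih1, sensors of double-stranded RNA, and Stat2 also rose (limma adjusted p = 0.0197, 0.0263 and 0.0351). Of the 3 genes of the type I receptor list, 2 rose as deposited, beside 25.6% of all rows (limma). The kinase gene Tyk2 rose 2.49-fold and Ifnar2 rose (limma adjusted p = 0.0136 and 0.022), while Ifnar1 did not pass (0.934). With trimmed-mean scaling 1 of the 3 rose and with quantile normalization 0, beside 4.52% and 1.34% of all rows (limma).

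**Figure D4:**
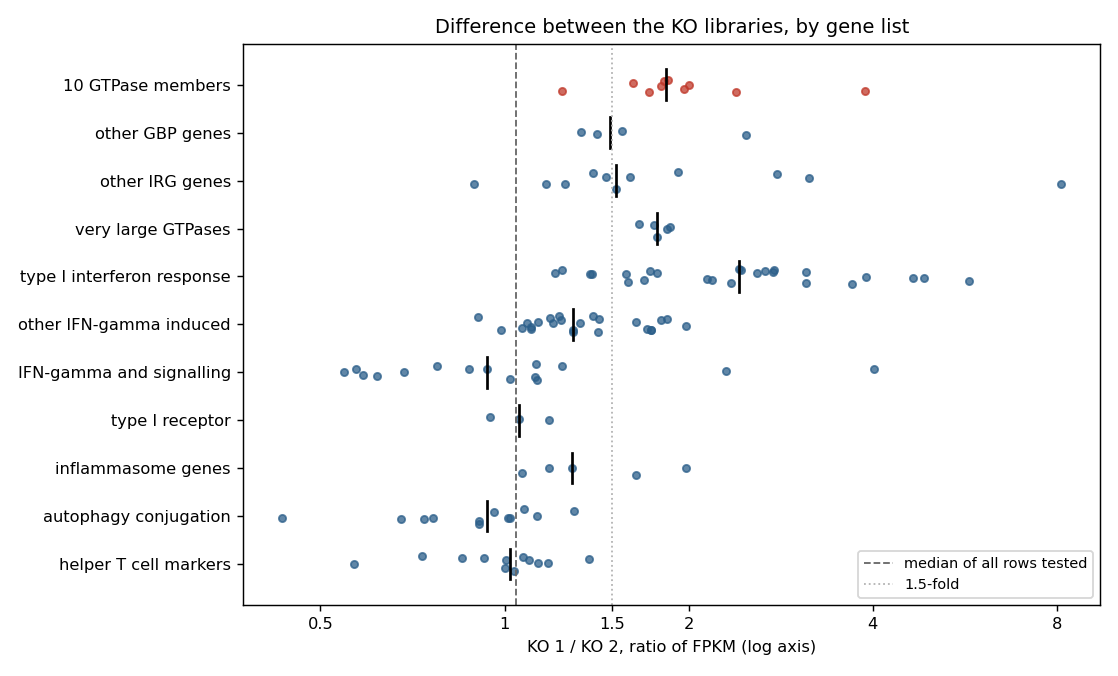
Ratio of KO 1 to KO 2 (FPKM, log axis) for each tested row of 11 gene lists; each point is a row, black bars are list medians, the dashed line is the median of all rows tested (1.04) and the dotted line 1.5. The members (red, median 1.84) and the type I interferon response genes (median 2.42) lie mostly right of the dotted line, while interferon-gamma signalling, autophagy and helper T cell genes lie around 1.

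Genes that work with GBPs and IRGs in the cell were counted in the same way. Of 12 genes of the autophagy conjugation machinery, which directs these GTPases to vacuoles, 1 rose and 0 fell (limma; 8.33%, beside 25.6% of all rows). It was Gabarapl1, at 4.73 and 4.64 FPKM in KO 1 and KO 2, against 1.07 and 1.72 FPKM in WT 1 and WT 2 (limma adjusted p = 0.0139). Atg16l1, Atg7 and Sqstm1 did not pass (limma adjusted p = 0.0808, 0.217 and 0.273). Of 5 tested inflammasome genes 2 rose, beside 25.6% of all rows (limma). With trimmed-mean scaling and with quantile normalization 0 rose, beside 4.52% and 1.34% of all rows (limma; 2 higher at an unadjusted p under 0.05 in each). Casp4, the protease for cytosolic lipopolysaccharide, was at 35.4 and 21.5 FPKM in KO 1 and KO 2, against 5.83 and 11.3 FPKM in WT 1 and WT 2 (limma adjusted p = 0.0212). Casp1 was the other, and the pore former Gsdmd and the DNA sensor Aim2 did not pass (limma adjusted p = 0.0845 and 0.507). Casp1, Casp4 and Aim2 also stand in the further list of genes induced by interferon-gamma, so both calls were counted there too.

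Over the 4 libraries, the rows closest to the mean centred log2 profile of the members were Parp12, Gimap7, Zfp808, D2Ertd750e and Ifi203. Their root mean square difference from it was 0.0236, 0.0347, 0.0467, 0.0584 and 0.0665 on the log2(FPKM + 1) scale. Parp12, for example, was at 3.86 and 1.68 FPKM in KO 1 and KO 2, against 1.12 and 1.30 FPKM in WT 1 and WT 2. With 4 points such likeness is a description of these libraries.

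Markers of other cells were measured in each library. The summed level of 15 macrophage and monocyte markers was 12.1 and 16.2 FPKM in KO 1 and KO 2, against 3.19 and 6.30 FPKM in WT 1 and WT 2, higher in KO 2 than in KO 1. Of 3 tested, Lyz2 and Hmox1 were called higher, beside 25.6% of all rows (limma adjusted p = 0.0339 and 0.02). Lyz2 was at 2.99 and 4.38 FPKM in KO 1 and KO 2, against 0.164 and 1.53 FPKM in WT 1 and WT 2. Hmox1 was at 2.06 and 4.47 FPKM in KO 1 and KO 2, against 0.339 and 0.624 FPKM in WT 1 and WT 2. Csf1r stayed at or under 0.354 FPKM, and Cd14 and Marco were at 0 in KO 2, WT 1 and WT 2. The 9 B cell markers summed to 27.3 and 26.6 FPKM in KO 1 and KO 2, against 25.9 and 21.6 FPKM in WT 1 and WT 2, with Fcer2a the largest part. Of 4 tested, Cd79b and Cd22 were called higher, beside 25.6% of all rows (limma adjusted p = 0.0134 and 0.0144). Fcer2a and Cd79a did not pass (limma adjusted p = 0.166 and 0.509). Fcer2a was lower in both KO libraries, at 12.4 and 12.4 FPKM in KO 1 and KO 2, against 19.2 and 14.8 FPKM in WT 1 and WT 2. Cd79a overlapped, at 2.93 and 4.90 FPKM in KO 1 and KO 2, against 3.19 and 3.13 FPKM in WT 1 and WT 2. Cd79b was at 3.76 and 3.03 FPKM in KO 1 and KO 2, against 0.842 and 0.861 FPKM in WT 1 and WT 2. Cd22 was at 4.93 and 4.41 FPKM in KO 1 and KO 2, against 1.84 and 1.69 FPKM in WT 1 and WT 2. Dendritic cell markers summed to 53.7 and 39.9 FPKM in KO 1 and KO 2, against 39.3 and 32.9 FPKM in WT 1 and WT 2, with Xcr1 and Siglech the largest parts in WT libraries and Itgax at or under 0.297 FPKM. Of 4 tested, the MHC class II genes H2-Aa and H2-Ab1 were called higher, beside 25.6% of all rows (limma adjusted p = 0.0225 and 0.0131). Of the rows tested, 1 lay lower in both KO libraries than in both WT libraries, beside 12.1% of all rows. With trimmed-mean scaling 2 of the 4 were higher and 2 lower at an unadjusted p under 0.05 (limma). H2-Aa was at 17.4 and 7.20 FPKM in KO 1 and KO 2, against 1.94 and 3.33 FPKM in WT 1 and WT 2. H2-Ab1 was at 11.3 and 6.98 FPKM in KO 1 and KO 2, against 2.40 and 2.14 FPKM in WT 1 and WT 2. In both KO 1 was above KO 2, as in the members. Natural killer markers summed to 4.36 and 6.50 FPKM in KO 1 and KO 2, against 7.25 and 8.27 FPKM in WT 1 and WT 2, with Ncr1 at or under 0.225 FPKM. The 6 neutrophil markers summed to 21.3 and 50.9 FPKM in KO 1 and KO 2, against 4.37 and 44.1 FPKM in WT 1 and WT 2. The erythroid rows summed to 393 and 319 FPKM in KO 1 and KO 2, against 6.33 and 99.2 FPKM in WT 1 and WT 2. All 5 tested were called higher, beside 25.6% of all rows (limma), with Hba-a2 on more than 1 of them. With trimmed-mean scaling 1 erythroid, 1 B cell, 1 dendritic cell and 0 macrophage rows were called higher, beside 4.52% of all rows (limma). With quantile normalization 0 rows of these lists were, beside 1.34% of all rows (limma). The macrophage, B cell, dendritic cell and erythroid calls were lost without WT 1. So were nearly all calls over all rows, in a fit with 1 WT library. The part of such cells in the values of the GTPases was not tested. In these bulk samples more cells that express a gene and more RNA per cell cannot be told apart.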

How the data were processed

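The authors deposited 1 table of FPKM per library, per the file headers, with 23700 rows named by gene symbol. The submitters' processing notes name Bowtie 0.12.2 and mouse build mm8, and no program, annotation or filter for the FPKM step is stated in the labels. Libraries were made from Direct-zol RNA with the NEBNext Ultra kit, per the labels' protocols. FPKM depends on the mapped total, so a few abundant genes can shift all others.

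The test was limma 3.58.1 (R 4.3.3, intensity trend) on log2(FPKM + 1), which understates changes of low genes. Rows entered it where 2 or more of the 4 libraries reached 1 FPKM. It was two-sided, with Benjamini-Hochberg adjustment over all 11074 rows tested and a threshold of 0.05. On simulated data with independent noise, the check was only that mean estimates of planted changes came out close to their size. That check does not show how often calls in these libraries are wrong. Rows of 1 symbol were tested separately. Folds are ratios of mean FPKM. Trimmed-mean scaling trimmed 30% of log ratios and 5% of levels at each side.

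Depth was estimated from low values (0.005 to 0.15 FPKM) of genes with 1 transcript, assuming fragments of 200 nt. Of these values 60.8% to 69.5% were within 5% of whole fragments, so no count test was run. Transcripts were those of GENCODE M21 and promoters those of RefSeq, both of a later build than mm8. They gave names, lengths and sequences, and every coordinate printed is of that later build. Of 210 symbols in the lists, 8 needed a synonym and 10 found no row.

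The members and lists were chosen with earlier results of these data known. Named were all members and other family genes, core signalling genes, up to 4 genes of each further list by unadjusted p, and the 5 rows nearest in profile. Other lists are given by their counts or summed levels. Some genes that this rule takes in, and a second promoter motif that was searched, are not reported here. Each library was left out in turn, and the pseudocount, filter, scaling, form of the test and a block for the replicate number were varied. Other tools were Python 3.11.15, pandas 2.3.3, numpy 2.4.6 and matplotlib 3.10.9.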

Additional observations from a re-analysis of the deposited data

How the results depend on the processing

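Of the 10 members, 1 was called higher in limma as deposited. The count was 4 with at least 1 FPKM required in all 4 libraries, where 3035 of 9584 rows were called higher. It was 2 with robust eBayes and 6 with the replicate block, which called 3371 and 3909 of 11074 rows higher. It was 0 with no filter, with trimmed-mean scaling and with quantile normalization (limma; 1 member at an unadjusted p under 0.05 in each of these 3). It ran from 0 to 7 on leaving out 1 library: 1 without KO 1, 7 without KO 2, and 0 without WT 1 and without WT 2. The median member less the median row was 0.35 and ran from -0.053 (without KO 1) to 0.75 (without KO 2). Over all rows 2832 were higher and 111 lower. The higher count was 3 with no filter, 148 after quantile normalization and 501 after trimmed-mean scaling, and ran from 9 (without WT 1) to 2173 on leaving out 1 library. The lower count was 171 with robust eBayes, 0 with no filter, 68 after quantile normalization, 230 with the replicate block and 415 after trimmed-mean scaling, and ran from 1 to 132. Over the other lists together 29 rows were higher and 0 lower. The higher count was 0 with no filter (36 at an unadjusted p under 0.05), 2 after quantile normalization, 54 with the replicate block and 6 after trimmed-mean scaling, and ran from 0 to 47 on leaving out 1 library. The lower count was 1 with the replicate block and after trimmed-mean scaling, and ran from 0 to 1. Log2 changes turned negative after quantile normalization and trimmed-mean scaling for Irgm1 (-0.20 and -0.32) and Irgm2 (-0.43 and -0.42), with a pseudocount of 0.1 for Irgm2 (-0.00015), without KO 1 for Irgm1 (-0.30) and Irgm2 (-0.14), and without WT 2 for Irgm2 (-0.06); none of these passed. The lowest and highest values of Irgm1 on leaving out 1 library were -0.30 and 0.54, and of Irgm2 -0.14 and 0.15. Where 1 library was left alone in its group, it was assumed to vary like the other group. The replicate numbers are not stated to pair the libraries; deviations of same-numbered libraries correlated at 0.11 over 11074 rows, and the block brought Gbp3, Gbp4, Gbp6, Gbp7 and Iigp1 past the threshold beside Gbp5. It also raised the type I response list from 6 to 19 of 25 called higher and the very large GTPases from 0 to 5 of 5 rows, and called Ifngr2 lower (limma adjusted p = 0.049). The stricter filter called 11 of 19 type I response genes, beside 3035 of 9584 rows. A pseudocount of 5 called 4 of 5 rows of very large GTPases, beside 2930 of 11074 rows. The cause of these differences was not tested. Depth is known only as an estimate, less certain for the KO libraries, and limits low genes most.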
